A study of Mus musculus with 20 samples.

Results

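CpG-sparse windows of intermediate methylation, at 50 to under 80% on average, were described in promyelocytes sorted from mice. Each is a fixed window of 1000 bp of the mm9 genome on chromosomes 1 to 19. Only cytosines read at least 10 times in all 20 libraries were used. A window was chosen if it held 3 to 9 of these cytosines, if its level averaged over the 20 libraries lay in that range, and if it started more than 2000 bp from the start of any window with at least 20 cytosines and a level below 10%. The level of a window is the percent of its reads, summed over its cytosines, that kept a C after bisulfite treatment. A read is counted once for each cytosine it covers. This rule gave 8568 windows, which were 10.1% of the 84524 windows tested and 15.2% of the 56364 CpG-sparse ones. Because the average level chose the windows, that level is a description and carries no test.

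The 20 libraries came from 4 groups of 5, all of FVB/n background. They were PML-RARa transgenic late promyelocytes without CD34 on their surface (PML-RARa CD34-), wild-type late promyelocytes (WT CD34-), PML-RARa transgenic early promyelocytes that carry CD34 (PML-RARa CD34+) and wild-type early promyelocytes (WT CD34+). The design sets the genotypes against each other within each fraction, and the fractions against each other within each genotype. The labels give neither the promoter that drives the transgene nor the ages of the mice, and nothing in them tells if libraries of the same group are from different animals. The p-values below therefore measure the spread between libraries, which may be technical. The identity of the sorted cells could not be checked, since DNA methylation of these windows shows no surface marker.

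In mammalian DNA, most CpGs outside CpG islands carry a methyl group on both strands, and islands at active promoters carry none. Distal regulatory elements often lie between these states and commonly lose methylation as blood cells mature. PML-RARa is the fusion of a nuclear body protein with the retinoic acid receptor alpha that drives acute promyelocytic leukaemia, a disease of cells stopped at the promyelocyte stage. Enhanced reduced representation bisulfite sequencing (ERRBS) reads only fragments between nearby restriction sites, so "CpG-sparse" means here that few cytosines were covered, not that the window holds few CpGs. A bulk level is an average over cells, alleles and sites, and a few unmethylated cells among methylated ones cannot be told apart from partial methylation in all cells.

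Total coverage, summed over cytosines, lay between 83631324 and 362881291 per library. Coverage summed over the cytosines of a window had a median of 498 per library. The distance of a library from the median of the other 4 of its group was taken as its scatter. It lay between 6.38 and 8.06 percentage points in PML-RARa CD34- replicates 6 and 12, PML-RARa CD34+ replicates 5 and 11 and WT CD34+ replicate 1, and between 3.32 and 5.77 points in the others. Results that change without these 5 libraries are given beside their values. The libraries were run on 4 flowcells, lettered A to D, and C held PML-RARa CD34+ replicate 19 alone.

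The windows lay on the slope below the main peak of methylation. Among CpG-sparse windows, 38568 had a level of 80% or more, 3511 one of 20 to under 50% and 5717 one below 20%. The median level of the chosen windows was 69.1%, with quartiles at 61.9% and 75.1%. The 3 windows just inside the lower bound had levels of 50.005%, 50.015% and 50.026%, against 49.982%, 49.985% and 49.997% for the 3 just outside it. At the upper bound the 3 just inside had 79.996%, 79.997% and 79.999%, against 80.0003%, 80.0007% and 80.01% just outside. The bounds therefore cut through a continuous range. Most windows were short stretches of data: 2841 held 3 cytosines, 2006 held 4 and 273 held 9, and the cytosines of a window spanned a median of 162 bp.

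**Figure D1:**
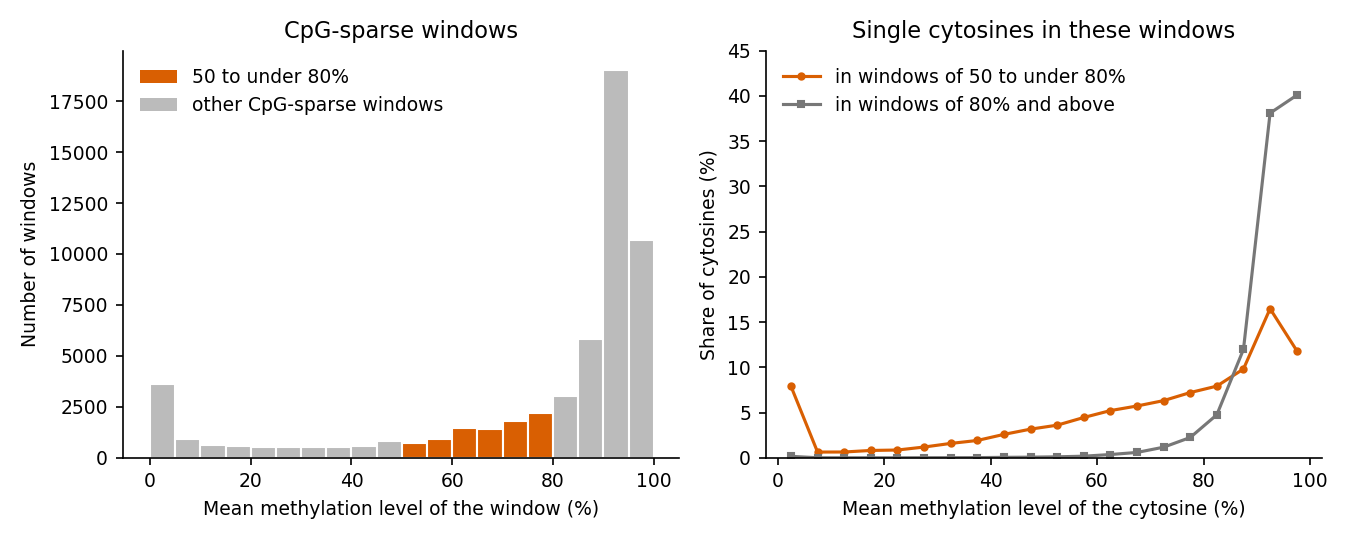
Left, the number of CpG-sparse windows by mean methylation level over the 20 libraries, in bins of 5 percentage points, with the 8568 windows of 50 to under 80% in orange and the others in grey. Right, the share of single cytosines by mean level, for the 39984 cytosines of the orange windows and, in grey, for those of CpG-sparse windows at 80% or more. The orange windows lie on the flank of the peak above 80% in the left plot, and their cytosines spread over the whole scale, with 7.92% of them below 5%.

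An intermediate window level seldom meant that its cytosines were all intermediate. Of the 39984 cytosines in the windows, 10.0% had a mean level below 20%, 43.9% one of 20 to under 80% and 46.1% one of 80% or more. In CpG-sparse windows of 80% and above, 94.9% of cytosines were at 80% or more. The highest and lowest cytosine of a chosen window differed by a median of 54.7 percentage points, and by at least 50 points in 4666 windows (54.5%). CpG-sparse windows of 20 to under 50% were alike in this, with a median of 57.2 points and at least 50 points in 57.3%. In 1146 windows (13.4%) every cytosine lay between 20 and 80%, and in 1901 (22.2%) none did. A cytosine below 20% and one at 80% or more stood together in 3228 windows (37.7%).

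2 windows mark the ends of this range. At chr4:106987001-106988000 the 3 cytosines had mean levels of 78.7%, 79.0% and 78.9%. At chr4:132981001-132982000 the 6 cytosines had levels of 93.3%, 89.6%, 84.3%, 0%, 0% and 100%. The 2 cytosines at 0% are the 2 strands of one CpG, which was read as unmethylated in every library and flanked by methylated ones. Cytosines below 5% in every one of the 20 libraries numbered 1943 and lay in 1774 of the windows (20.7%), against 0.516% of the windows of 80% and above. In CpG-sparse windows of 20 to under 50% the share was 22.5%. The low share at 80% and above is partly set by the rule, since such a cytosine lowers the average of a few cytosines. At 66 CpGs of the chosen windows both strands were that low in every library. A cytosine that the FVB/n strain lacks would give the same reading. Strain differences from the reference were not tested.

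Many low cytosines stood at one distance from another covered cytosine. Of the 3421 cytosines below 10% in the windows, 1593 (46.6%) lay 54 to 58 bp downstream, in the direction of their own strand, of another covered cytosine of that strand. Of the cytosines at 10% or more, 5.71% did. Seen from the other side, 43.3% of the cytosines at this distance were below 10%, against 5.04% of the other cytosines. The step was abrupt. At 53 bp, 11.9% of 371 cytosines were below 10%, at 54 bp 35.3% of 584, at 58 bp 42.9% of 774, and at 59 bp 0 of 61.

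**Figure D2:**
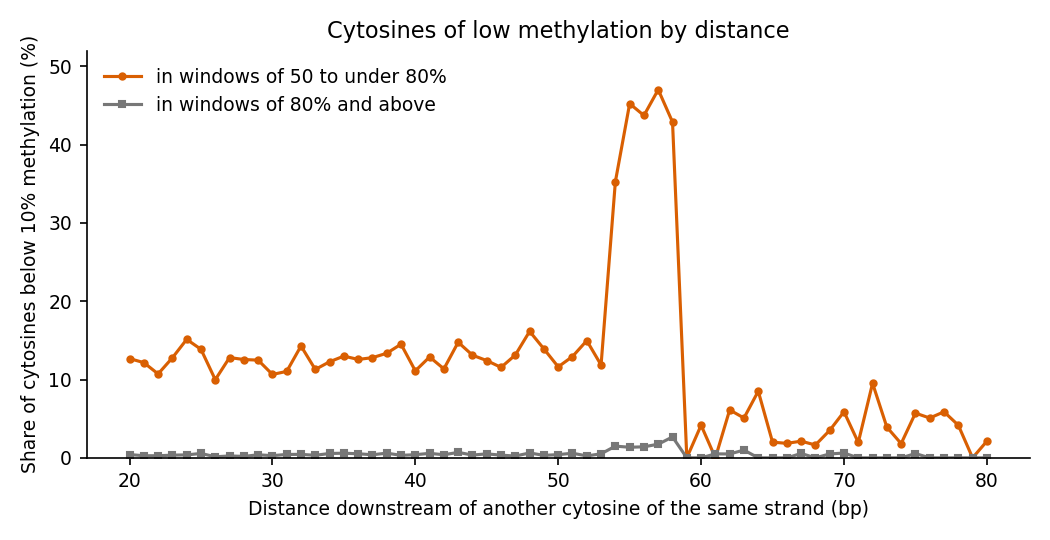
Share of cytosines with a mean level below 10%, by their distance in bp downstream of another covered cytosine of the same strand, in the windows of 50 to under 80% (orange) and in CpG-sparse windows of 80% and above (grey). The orange share stands between 35.3% and 47.0% from 54 to 58 bp and between 9.99% and 16.2% from 20 to 53 bp, and the grey share reaches 2.67% at 58 bp.

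The strands of one CpG also differed there. Both strands were covered at 5082 CpGs in 3073 of the windows, and at 1338 of them (26.3%) the strands were at least 50 points apart, with the plus strand higher at 657 and the minus strand higher at 681. The share was 0.434% in windows of 80% and above and 1.17% over all windows tested. In 446 windows there were 2 such CpGs. In 445 of them the plus strand was the more methylated one at the left CpG and the minus strand at the right CpG, in 0 the order was the opposite, and in 1 both CpGs had the same strand higher. The CpGs of the 445 couples lay 54 to 58 bp apart, with a median of 56 bp. At chr17:45979001-45980000 the left CpG of such a couple had 86.6% on the plus and 2.65% on the minus strand, and the right CpG had 2.14% on the plus and 78.3% on the minus strand. The other 4 cytosines of that window lay between 83.3% and 94.0%. In reduced representation libraries the ends of short restriction fragments are filled in with unmethylated cytosines before sequencing. The files hold no read or fragment ends, and the part of fill-in in these low cytosines was not tested.

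A cytosine at this distance was present in 2818 windows (32.9%). With these cytosines left out, 2128 of the 2818 kept at least 3 cytosines. Of those, 1072 then stood at 80% or more, 1021 stayed in 50 to under 80% and 35 stood below 50%, and their median level was 80.2%, against 70.2% before. Over all windows 6771 (79.0%) remained in the range by their other cytosines. Calls and mean differences between fractions are given below for these 6771 as well. Of the windows named in this report, chr7:121334001-121335000, chr2:166380001-166381000 and chr17:45979001-45980000 are not among the 6771.

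The windows lay on every autosome, mostly alone. Chosen windows were a larger share of the neighbours of chosen windows than of the neighbours of CpG-sparse windows of 80% and above. They made up between 8.85% of the windows tested on chromosome 16 and 11.5% on chromosome 4. Runs of adjacent windows were short, with 8189 windows alone, 182 runs of 2 and 5 runs of 3. The nearest window of at least 20 cytosines below 10%, the usual reading of an unmethylated CpG island, started a median of 49000 bp away. A tested window directly beside a chosen one had a median level of 82.6% (2077 neighbours), against 92.3% beside windows of 80% and above (8154 neighbours). Of these neighbours, 18.5% and 12.0% were themselves windows of the chosen kind, where 10.1% of all windows tested were. At 2000 bp the shares were 14.2% and 11.8%. Adjacent windows can share restriction fragments, so their levels are not independent.

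Between libraries of one group the windows varied more than a count of independent readings gives. The SD within groups, pooled over the 4 groups, had a median of 7.84 percentage points, against 2.30 points from counting alone, a median ratio of 3.53. The counting SD treats each cytosine of a read as a separate read. It is therefore too small, and the ratio too large, where one read covers several cytosines. It was 4.26 points in windows of 80% and above, where levels have less room to vary. Its median was 9.48 points in windows whose cytosines differed by less than 20 points and 5.05 points in windows whose cytosines differed by 80 points or more.

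The windows with the smallest and the largest SD show both kinds. At chr10:68659001-68660000 the 20 libraries lay between 74.3% and 76.0%, on a mean coverage of 6117 summed over its cytosines. Its 6 cytosines had levels of 25.3%, 1.21%, 91.6%, 93.0%, 93.6% and 95.6%, so the steady 74.9% is an average over unlike sites. At chr11:5795001-5796000 the 3 cytosines averaged 54.2%, 45.1% and 56.8%, and the libraries scattered widely. Its levels were 0, 14.3, 20.8, 50.5 and 61.5% in PML-RARa CD34-, 19.3, 30.4, 41.4, 71.4 and 77.99% in WT CD34-, 2.22, 32, 46.4, 71.1 and 87.5% in PML-RARa CD34+ and 59.5, 78.7, 85.5, 90.5 and 100% in WT CD34+ libraries. The groups overlapped in all 4 comparisons, and none passed the test (smallest adjusted p = 0.519, quasi-binomial F test).

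Averaged over all 8568 windows, late promyelocytes were slightly less methylated than early ones in both genotypes, and the genotypes were close within a fraction. Over the 5 libraries of each group the level averaged 67.04% ± 0.504 in PML-RARa CD34-, 67.2% ± 0.748 in WT CD34-, 68.2% ± 0.771 in PML-RARa CD34+ and 69.2% ± 0.632 in WT CD34+ cells (± SD). In WT mice the 5 CD34- libraries, at 66.2 to 68.0%, all lay below the 5 CD34+ libraries, at 68.5 to 69.9%, with a difference of -2.01 points. The difference was -2.87, -1.84 and -1.24 points within flowcells A, B and D, which held 2, 1 and 2 libraries of each fraction. In PML-RARa mice the CD34- libraries lay between 66.6 and 67.8% and overlapped the CD34+ ones at 67.6 to 69.4%, with a difference of -1.20 points, and of -1.56 points within flowcell B, the one that held both fractions. No p is given for these means.

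The genotypes overlapped in both fractions. PML-RARa minus WT was -0.984 points in CD34+ cells, and -0.509 and -1.11 points within flowcells B and D. In CD34- cells it was -0.176 points, and 0.187 and -0.234 points within flowcells A and B, so its sign was not the same in both flowcells. Over all windows tested PML-RARa minus WT was -0.417 points in CD34+ and -0.096 points in CD34- cells. CD34- minus CD34+ was -0.626 points in PML-RARa and -0.953 points in WT mice over windows of 80% and above, and -1.29 and -2.36 points over windows of 20 to under 50%. Over all windows tested it was -0.561 and -0.882 points. The WT fractions did not overlap in any of these sets either, so their separation is not particular to the chosen windows. They overlapped in windows below 20%.

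**Figure D3:**
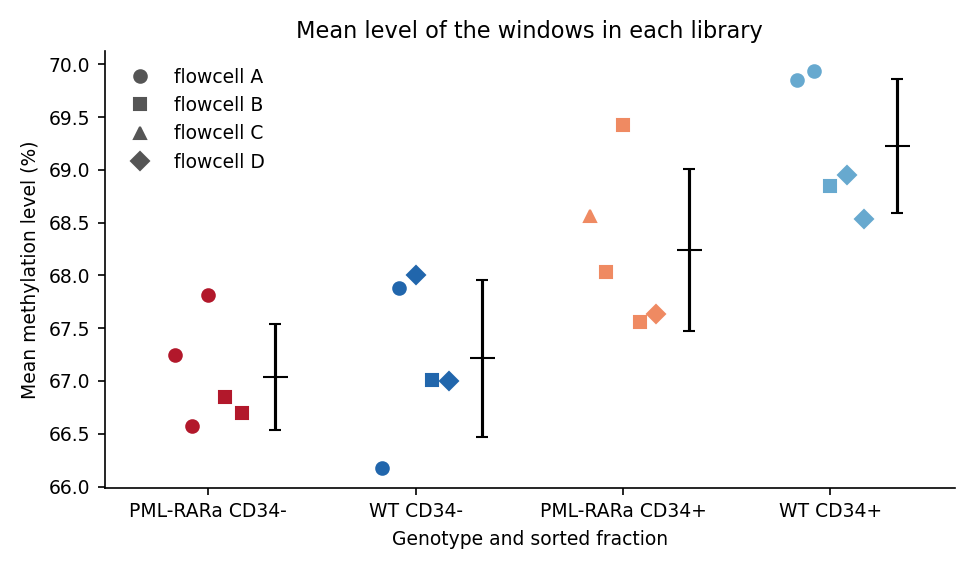
Mean methylation level of the 8568 windows in each of the 20 libraries, by genotype and sorted fraction. Each point is a library, its shape gives the flowcell, and the bar to the right of each group is the mean with its SD (n = 5). The axis does not start at 0. The 5 WT CD34- libraries lie between 66.2 and 68.0%, below the 5 WT CD34+ libraries, while the groups overlap in the other 3 comparisons.

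The passage of wild-type promyelocytes from CD34+ to CD34- changed single windows, mostly by loss of methylation. A logistic model with quasi-binomial spread was fitted to each window over the 20 libraries, and groups were compared by an F test with Benjamini-Hochberg adjustment over all 84524 windows. A window was called where its adjusted p was below 0.05 and its group means lay 10 percentage points or more apart. In WT mice 124 of the 8568 windows were called (1.45%, against 0.45% of all windows tested), and 781 had an unadjusted p below 0.05 (9.12%, against 6.18% of all windows tested). Of the 124, 106 were lower in CD34- cells and 18 higher, where 0.394% and 0.0556% of all windows tested were called. The share called was 0.0622% in CpG-sparse windows of 80% and above, 3.45% in those of 20 to under 50% and 1.22% in those below 20%. The level that sorts windows into these classes averages the same libraries that made the calls. A window with a large change between fractions is drawn to middle levels, so these shares are partly set by the rule.

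The called windows lay on all 19 autosomes. The median difference was -25.8 points in the 106 lower windows and 26.3 points in the 18 higher ones. In 112 of the 124 the 5 CD34- and the 5 CD34+ libraries did not overlap, which was so in 2.12% of all windows tested. Within each of flowcells A, B and D, all 124 kept the direction of the call, with medians of -29.0, -27.4 and -20.5 points in the lower windows. The change ran through the window: 593 of the 612 cytosines of called windows (96.9%) moved the way of their window, against 66.6% over all chosen windows, and 83 of 84 CpGs read on both strands moved the same way on both. These shares describe libraries that also made the calls. The count of called windows was 140 without the 5 libraries of high scatter, and lay between 58 without WT CD34+ replicate 9 and 144 without PML-RARa CD34- replicate 6. It was 71 without WT CD34+ replicate 7, 75 without WT CD34- replicate 16 and 82 without WT CD34- replicate 18. With limma on logit levels it was 46, and at a coverage minimum of 20 it was 47 of the 4404 windows that remained.

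The largest loss was at chr15:59538001-59539000, a window of 7 cytosines. The levels, here and below from low to high, were 13.3, 13.5, 25.4, 25.98 and 28.8% in WT CD34- and 62.8, 67.8, 82.6, 86.5 and 90.9% in WT CD34+ libraries. Every CD34- library was below every CD34+ library, and the means differed by -56.8 points (adjusted p = 0.00477, quasi-binomial F test). Its PML-RARa libraries stood at 23.3, 29.9, 36.4, 55.02 and 63.4% in CD34- and at 56.9, 62.4, 65.4, 71.6 and 89.2% in CD34+ cells, where the fractions overlapped and differed by -27.5 points (adjusted p = 0.326, quasi-binomial F test). All 7 cytosines were lower in WT CD34- cells, with group means of 12.0 to 28.6%, against 69.0 to 85.5% in WT CD34+ cells.

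At chr11:76788001-76789000 the levels were 24.5, 31.1, 34.8, 49.4 and 55.5% in WT CD34- and 78.2, 81, 81.2, 87.1 and 94.8% in WT CD34+ libraries. The groups did not overlap and differed by -45.4 points (adjusted p = 0.000689, quasi-binomial F test). PML-RARa libraries had 29.8, 41.8, 44.9, 56.2 and 59.2% in CD34- and 55.9, 62.8, 65.2, 67.2 and 84.8% in CD34+ cells, and there the fractions overlapped. The difference of -20.8 points was not called (adjusted p = 0.262, quasi-binomial F test).

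The remaining named losses were of like size. At chr19:46442001-46443000, with 7 cytosines, the levels were 24.1, 32.1, 47.2, 48.8 and 50.2% in WT CD34- and 78.6, 78.6, 85.9, 86.99 and 91.8% in WT CD34+ libraries, with no overlap and a difference of -43.9 points (adjusted p = 0.000248, quasi-binomial F test). The loss there was uneven along the window. Its first 2 cytosines had means of 85.7% and 91.7% in WT CD34- cells, against 91.1% and 92.4% in WT CD34+ cells. The other 5 lay between 10.8 and 65.1% in WT CD34- and between 72.3 and 96.2% in WT CD34+ cells. At chr7:25187001-25188000 the means were 44.4% ± 10.4 in WT CD34- and 90.2% ± 7.58 in WT CD34+ cells, and at chr5:74579001-74580000 they were 31.8% ± 7.31 and 74.4% ± 10.3 (SD, n = 5 each). Both pairs of groups were apart in every library, with adjusted p of 0.00511 and 0.000808 in the quasi-binomial F test. The call at chr7:25187001-25188000 was lost without WT CD34+ replicate 9, and under limma on logit levels, with an adjusted p of 0.203.

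Gains were fewer than losses. The largest was at chr8:12931001-12932000, where 4 cytosines lay within 4.12 points of each other over all libraries. The levels were 72.8, 76.8, 78.05, 82.5 and 85.7% in WT CD34- and 20.9, 21.8, 30.2, 32.3 and 49.3% in WT CD34+ libraries. No library of one group reached the other, and the difference was 48.3 points (adjusted p = 0.000146, quasi-binomial F test). The window was called in PML-RARa mice too, with 72.1, 75.6, 82.3, 84.5 and 95.2% in CD34- and 36.1, 43.5, 46.6, 50.7 and 51.1% in CD34+ libraries. Those groups did not overlap either and differed by 36.3 points (adjusted p = 0.0171, quasi-binomial F test).

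At chr7:54248001-54249000 the levels were 84.6, 87.5, 90.8, 91.1 and 93.98% in WT CD34- and 33.3, 40.8, 43.6, 56.2 and 62.2% in WT CD34+ libraries, a gain of 42.4 points with no overlap (adjusted p = 0.00131, quasi-binomial F test). PML-RARa libraries had 75.3, 84.1, 90.96, 92.6 and 98.2% in CD34- and 51.3, 65.9, 66.1, 68.9 and 71.2% in CD34+ cells. These did not overlap, and the difference of 23.6 points had an adjusted p of 0.0539 in the quasi-binomial F test, just outside the threshold. At chr15:99473001-99474000, chr7:121334001-121335000 and chr9:61733001-61734000 the WT means were 73.7% ± 9.09, 89.8% ± 7.59 and 69.03% ± 6.26 in CD34- cells and 32.7% ± 16.9, 53.4% ± 11.9 and 35.7% ± 5.02 in CD34+ cells (SD, n = 5 each). The groups were apart in all 3 windows, with adjusted p of 0.00258, 0.00278 and 0.000248 in the quasi-binomial F test.

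**Figure D4:**
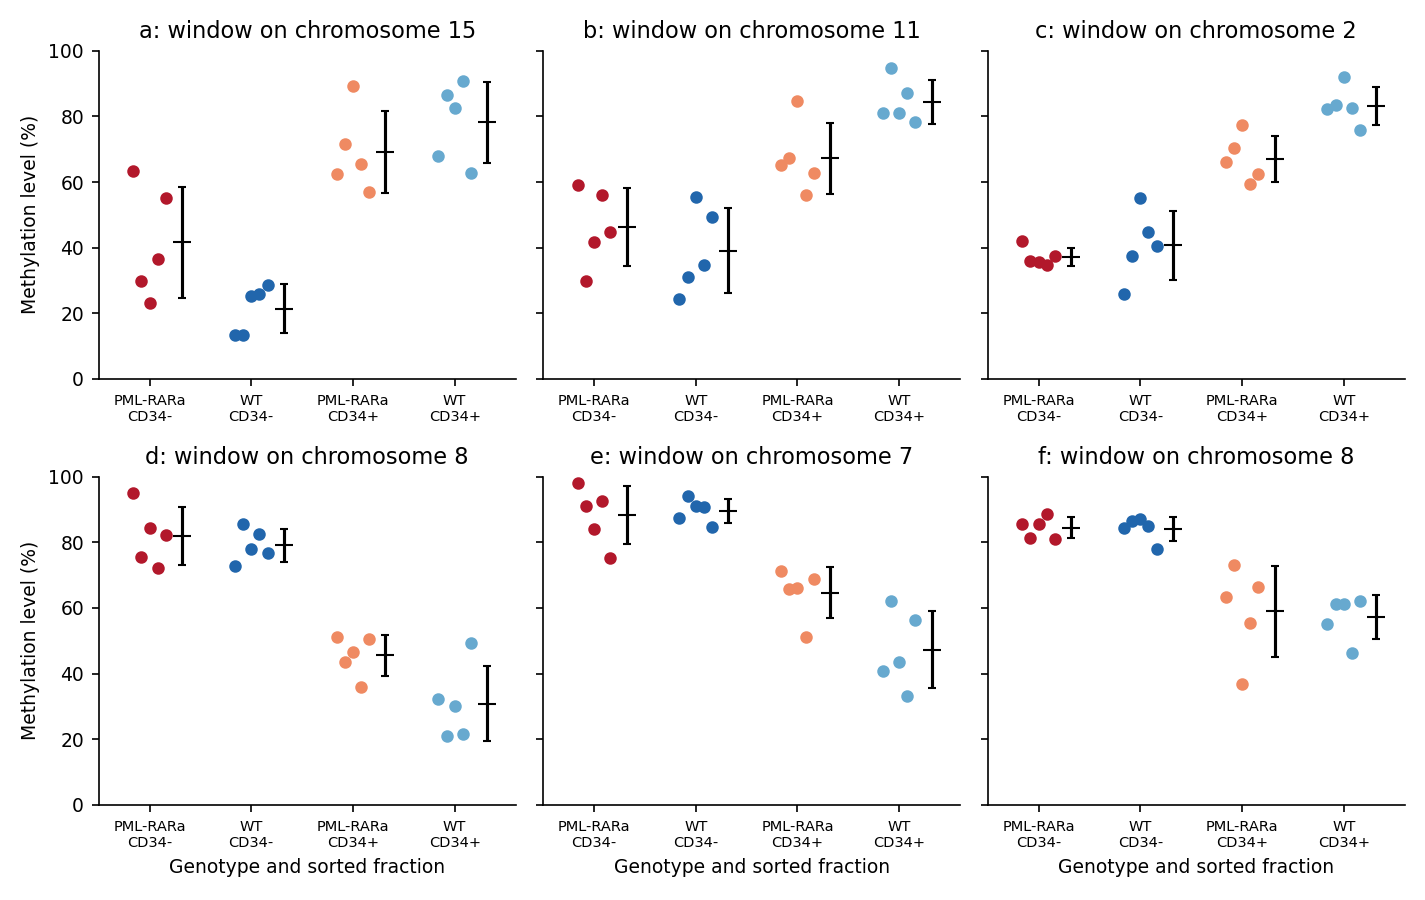
Methylation level of 6 called windows in each library, with the mean and SD of each group to the right of its 5 points. Panels a, b and c are windows lower in CD34- cells, and d, e and f are windows higher in CD34- cells. All 6 are named windows, chosen for their differences between fractions in WT mice (a, b, d, e) or PML-RARa mice (c, f). In panel a the PML-RARa CD34- mean is 41.6%, against 21.4% in WT CD34- libraries.

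In PML-RARa mice fewer windows passed the test. The same comparison of CD34- with CD34+ cells called 11 of the 8568 windows (0.128%, against 0.0722% of all windows tested), and 919 had an unadjusted p below 0.05 (10.7%, against 9.59% of all windows tested). The fractions' means lay at least 10 points apart at more windows in PML-RARa than in WT mice. They did so at 1209 windows in PML-RARa mice (14.1%, against 3.82% of all windows tested). In WT mice they did so at 890 (10.4%, against 2.59% of all windows tested). Of the 11, 9 were lower and 2 higher in CD34- cells, where 0.0615% and 0.0106% of all windows tested were called. In 10 of the 11 the fractions did not overlap, which was so in 1.05% of all windows tested. This count rests on single libraries and on the flowcells. It was 0 without PML-RARa CD34+ replicate 19, the one library of flowcell C, and 4 without PML-RARa CD34- replicate 20. It was 6 without PML-RARa CD34- replicate 6 or PML-RARa CD34+ replicate 5, 7 without PML-RARa CD34+ replicate 3, and 4 without the 5 libraries of high scatter. With flowcell as a factor it was 0. Other fits gave both fewer and more calls. The count was 1 when the 2 fractions were fitted alone, where 6 of all windows tested were called. Counts over all windows tested are again in brackets. It was 2 (13) at a coverage minimum of 20. It was 4 (28) and 7 (52) in the limma fits on logit levels and with equal weight of cytosines. It was 4 (30) without moderation and 25 (91) with windows shifted by 500 bp. Flowcell B alone held both fractions. All 11 kept their direction there, as did 6705 of all 8568 windows. The libraries of flowcell B also took part in the calls, as did those counted for overlap, so neither count is independent of the calls.

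The lowest adjusted p among the named losses of PML-RARa mice belonged to chr2:91486001-91487000, with 4 cytosines. The levels were 34.7, 35.6, 35.98, 37.4 and 41.9% in PML-RARa CD34- and 59.5, 62.4, 66.1, 70.5 and 77.3% in PML-RARa CD34+ libraries. The fractions did not overlap and differed by -30.02 points (adjusted p = 0.0146, quasi-binomial F test). WT libraries had 26.02, 37.4, 40.4, 44.6 and 55.1% in CD34- and 75.7, 82.3, 82.6, 83.5 and 91.98% in CD34+ cells. They were apart as well, with a difference of -42.5 points (adjusted p = 6.88e-05, quasi-binomial F test), the smallest p of any chosen window in that comparison.

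At chr14:106277001-106278000 the levels were 31.3, 37.7, 42, 44.97 and 47.5% in PML-RARa CD34- and 60.9, 63.4, 70.4, 72.1 and 93.1% in PML-RARa CD34+ libraries, with a difference of -31.3 points and no overlap (adjusted p = 0.0311, quasi-binomial F test). WT mice differed there by -31.4 points (adjusted p = 0.000820, quasi-binomial F test), close to the difference in PML-RARa mice. At chr8:67356001-67357000 the levels were 43.3, 45.4, 45.5, 49.01 and 61.7% in PML-RARa CD34- and 66.9, 70.99, 82.3, 87.8 and 90.9% in PML-RARa CD34+ libraries, with no overlap and a difference of -30.8 points (adjusted p = 0.0208, quasi-binomial F test). The WT fractions overlapped there, at 61.6, 68.95, 69.5, 72.9 and 76.3% in CD34- and 71.6, 74.9, 81.02, 83.1 and 86.2% in CD34+ cells, and their difference of -9.51 points was not called. This is one of 2 windows called in PML-RARa mice alone. The other was chr1:93715001-93716000, with 62.7% ± 10.2 in PML-RARa CD34- and 87.03% ± 6.85 in PML-RARa CD34+ cells (SD, n = 5 each; adjusted p = 0.0246, quasi-binomial F test).

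The remaining named loss, at chr4:148517001-148518000, had 46.1% ± 8.71 in PML-RARa CD34- and 72.5% ± 5.88 in PML-RARa CD34+ cells (SD, n = 5 each; adjusted p = 0.0373, quasi-binomial F test), and was lost under 12 of the 20 removals of one library. The second gain was at chr8:125287001-125288000, a window of 7 cytosines. The levels were 81.1, 81.3, 85.7, 85.7 and 88.7% in PML-RARa CD34- and 36.8, 55.6, 63.4, 66.3 and 72.97% in PML-RARa CD34+ libraries, and the fractions did not overlap. The gain was 25.5 points (adjusted p = 0.0223, quasi-binomial F test), beside 26.9 points in WT mice (adjusted p = 0.000859, quasi-binomial F test).

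The windows called in WT mice mostly had smaller differences of the same sign in PML-RARa mice. Of the 124, 121 had a difference of the same sign in PML-RARa mice, against 57.99% of all 8568 windows, and 9 were called in both genotypes. Their median difference in PML-RARa mice was -14.5 points in the 106 windows lower in WT and 18.5 points in the 18 higher ones, against -25.8 and 26.3 points in WT mice. The difference was smaller in PML-RARa mice in 114 of the 124, against 3853 of all 8568 windows. Since WT libraries chose these windows, their WT differences are the more extreme side by choice. The PML-RARa fractions also differ in flowcell, as given above. Read from the other genotype, the 11 windows called in PML-RARa mice had a median difference of -22.95 points there and of -13.6 points in WT mice, with 6 of the 11 smaller in PML-RARa mice. The groups of these 2 comparisons share no library.

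**Figure D5:**
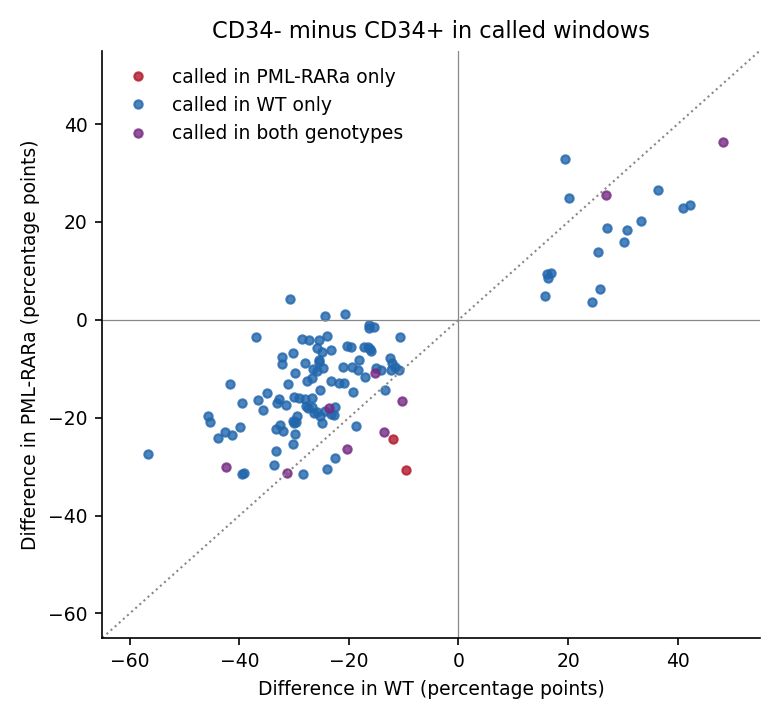
Difference between CD34- and CD34+ cells in percentage points, in PML-RARa mice (vertical) against WT mice (horizontal), for the 126 windows called in either genotype. Each point is a window, and the dotted line marks equal differences. Of the 124 windows called in WT mice, 121 lie in the quadrants of equal sign, and 114 lie nearer to 0 on the PML-RARa axis. Of all 8568 windows, most of them not drawn, 3853 had the smaller difference in PML-RARa mice.

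The difference between the genotypes in this change was tested itself. The interaction of genotype and fraction called 0 of the 8568 windows, as it did of all windows tested (0%). At an unadjusted p below 0.05 it had 426 windows (4.97%, against 5.19% of all windows tested), and both limma fits called 0 of the 8568 as well. The smallest p belonged to chr2:59618001-59619000. The levels there were 73.96, 87.8, 89.6, 91.5 and 97.7% in PML-RARa CD34- and 46.4, 62.3, 67.6, 68.6 and 70.6% in PML-RARa CD34+ libraries, with no overlap, and 50.5, 70.7, 70.95, 76.4 and 80.6% in WT CD34- and 75.3, 77.4, 80.98, 82.9 and 90.6% in WT CD34+ libraries, which overlapped. The change in PML-RARa mice exceeded that in WT mice by 36.6 points (adjusted p = 0.908, quasi-binomial F test).

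At chr15:98825001-98826000 the change was called in WT mice, with 35.4, 38.03, 42.3, 42.5 and 47% in CD34- and 62.3, 63.2, 67.6, 70.9 and 77.3% in CD34+ libraries (adjusted p = 0.000607, quasi-binomial F test). In PML-RARa mice the fractions overlapped, at 42.6, 43.4, 50.4, 51.1 and 54.5% in CD34- and 43.5, 51.7, 53.1, 55.7 and 58.6% in CD34+ libraries. The difference of 23.1 points between the genotypes' changes did not pass the test (adjusted p = 0.908, quasi-binomial F test). In the other direction, the changes differed by -21.6 points at chr17:47034001-47035000 and by -21.4 points at chr9:70253001-70254000, with an adjusted p of 0.911 at both in the quasi-binomial F test.

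Between genotypes no window passed the test in either fraction. In CD34+ cells the quasi-binomial F test called 0 of the 8568 windows and 0 of all windows tested (0%), and both limma fits called 0 of the 8568. At an unadjusted p below 0.05 there were 405 windows (4.73%, against 4.39% of all windows tested). In CD34- cells it called 0 windows of the 8568 and of all tested (0%), again with 0 of the 8568 in both limma fits, and had 640 at an unadjusted p below 0.05 (7.47%, against 8.03% of all windows tested). Group means lay at least 10 points apart at 627 windows in CD34- cells (7.32%, against 1.85% of all windows tested), with 340 lower and 287 higher in PML-RARa mice. In CD34+ cells they did so at 784 windows (9.15%, against 2.44% of all windows tested), with 541 lower and 243 higher. The median SD within groups was 7.84 points in the chosen windows and 3.62 points over all windows tested.

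In CD34+ cells the 2 smallest p-values for a lower level in PML-RARa mice belonged to chr7:151883001-151884000 and chr15:74538001-74539000. The first had 33.3, 42.03, 42.7, 50.9 and 62.4% in PML-RARa CD34+ and 57.1, 64.04, 67.4, 75.2 and 83.7% in WT CD34+ libraries. One PML-RARa library reached into the WT range, and the difference was -23.2 points (adjusted p = 0.533, quasi-binomial F test). The second had 46.4, 59.1, 63.9, 71.1 and 71.3% in PML-RARa CD34+ and 79, 81.7, 83.5, 85.6 and 89.4% in WT CD34+ libraries, with no overlap and a difference of -21.5 points (adjusted p = 0.533, quasi-binomial F test). Higher levels in PML-RARa cells were measured at chr17:45979001-45980000, the window of the couple of CpGs above. Its levels were 61.7, 63.9, 65.7, 68.5 and 73.3% in PML-RARa CD34+ and 52.1, 53.4, 54.95, 56.6 and 58.2% in WT CD34+ libraries, without overlap, a difference of 11.6 points (adjusted p = 0.533, quasi-binomial F test). At chr17:31462001-31463000 the means were 62.4% ± 17.1 in PML-RARa CD34+ and 34.4% ± 2.75 in WT CD34+ cells (SD, n = 5 each; adjusted p = 0.643, quasi-binomial F test).

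In CD34- cells the lowest p belonged to chr5:142500001-142501000, with 28.9, 33.3, 43.6, 46.9 and 47.2% in PML-RARa CD34- and 52.8, 54.9, 59.6, 66.2 and 67.7% in WT CD34- libraries. Every PML-RARa library was below every WT library, and the means differed by -20.3 points (adjusted p = 0.277, quasi-binomial F test). At chr2:166380001-166381000 the means were 55.8% ± 6.79 in PML-RARa CD34- and 72.03% ± 4.73 in WT CD34- cells (SD, n = 5 each; adjusted p = 0.329, quasi-binomial F test). That window was also called between the fractions, at -22.95 points in PML-RARa and -13.6 points in WT mice (adjusted p = 0.0212 and 0.0326, quasi-binomial F test). Levels were higher in PML-RARa cells at chr17:48078001-48079000, with 74.6% ± 5.58 in PML-RARa CD34- and 64.3% ± 3.02 in WT CD34- cells, and at chr14:66023001-66024000, with 77.6% ± 8.34 and 65.6% ± 4.66 (SD, n = 5 each). The groups overlapped at both windows, and the adjusted p were 0.329 and 0.411 in the quasi-binomial F test. One cytosine of chr17:48078001-48079000 was at 0% in every group.

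The calls fell unevenly over kinds of window, and these shares are given without a test. Between the WT fractions 0.45% of all windows tested and 1.45% of the chosen windows were called. Of the 2954 windows whose cytosines differed by 80 points or more, 8 were called between the WT fractions (0.271%). Of the 1712 windows with a range of 50 to under 80 points, 41 were called (2.39%), of the 2999 with 20 to under 50 points 54 (1.801%), and of the 903 with less than 20 points 21 (2.33%). By level, 42 of the 1675 windows at 50 to under 60% were called (2.51%), 39 of the 2887 at 60 to under 70% (1.35%) and 43 of the 4006 at 70 to under 80% (1.07%). That level averages the same libraries that made the calls, so the shares by level are partly set by it.

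The share called in WT mice, 0.45% over all windows tested, was also counted by the presence of cytosines at 54 to 58 bp. Windows that held such a cytosine had 24 calls in 2818 (0.852%), and windows without one had 100 in 5750 (1.74%). Of the 6771 windows that stayed in the range by their other cytosines, 115 were among the 124 called in WT mice and 10 among the 11 called in PML-RARa mice. Their own levels, refitted without those cytosines, gave 116 and 9 calls, beside 369 and 54 over all windows tested. With distance from the nearest densely covered unmethylated window, 22 of the 1152 windows within 10 kb were called in WT mice (1.91%), 79 of the 4754 at 10 to 100 kb (1.66%) and 23 of the 2662 farther away (0.864%).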

How the data were processed

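ERRBS, a bisulfite method that reads short restriction fragments, was applied to sorted promyelocytes, with 20 libraries in 4 groups of 5. CASAVA 1.8.2, Bismark and the mm9 build are named in the submitters' processing notes. Per the file headers, the authors deposited for each cytosine its coverage as a count of reads and the percent of reads with C or T. Files listed cytosines with at least 10 reads, between 1718859 and 2213704 per library, with a median coverage of 32 to 150. Methylated reads were taken as percent C times coverage, and the level of a window is their sum over the summed coverage. Counting error alone gives a median SD of 2.30 points for a chosen window, which covers counting error only, since reads without molecular identifiers are not independent molecules. It also treats each cytosine of a read as a separate read, so it is too small where one read covers several cytosines.

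Windows of 1000 bp with at least 3 cytosines covered in all libraries (84524) were fitted by a logistic model with quasi-binomial overdispersion. The overdispersion was moderated across windows by limma's method, rewritten in Python. Groups were compared by an F test with Benjamini-Hochberg adjustment. The fit and the tables used Python 3.11.15, NumPy 2.4.6, SciPy 1.17.1 and pandas 2.3.3. The alternative limma fits and a check of the moderation used limma 3.58.1 in R 4.3.3. The fit was tested on simulated data. The adjusted threshold was 0.05, with at least 10 points of difference. Alternatives were limma fits, a coverage minimum of 20, windows shifted by 500 bp, flowcell, title-number and pair terms, and left-out libraries. The windows named are, per direction, the 5 largest called differences between fractions, the 2 smallest p-values between genotypes or for the interaction, and the extremes of level, range and SD. Called windows starting within 1 kb of each other count as 1. The members and lists were chosen with earlier results of these data known. No mm9 genome or annotation was used here, so windows are given by position.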

Additional observations from a re-analysis of the deposited data

Results flagged for a closer look

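Single libraries stood apart from the other 4 of their group in 14 of 152 group values checked with Dixon's ratio, where chance gives about 1 in 20, or 7.6. No cause was tested.

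The scatter of WT CD34+ replicate 1 was 7.56 points, where its group's other libraries had 3.37 to 4.16, and 28.4% of its otherwise intermediate cytosines were below 5% or above 95%, against 0.228 to 2.76%. In other groups this share was 27.9% in PML-RARa CD34+ replicate 11, 21.9% in PML-RARa CD34- replicate 6 and 14.2% in PML-RARa CD34+ replicate 5. The level of WT CD34+ replicate 1 was 50% at the window starting at 70253001 on chromosome 9 (others 72.1 to 76.1%) and 64.7% at 166483001 on chromosome 2 (others 84.8 to 87.8%). WT CD34- replicate 16 had 10.3% of the windows below 50%, against 5.42 to 6.77%. WT CD34+ replicate 15 had 44.3% at 61733001 on chromosome 9, against 32.1 to 35.5%.

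PML-RARa CD34+ replicate 11 had 89.7% at 166380001 on chromosome 2 (others 74.8 to 78.4%), 51.3% at 54248001 on chromosome 7 (others 65.9 to 71.2%) and 49.0% at 132981001 on chromosome 4 (others 63.5 to 65.9%). PML-RARa CD34+ replicate 5 had 75.3% at 70253001 on chromosome 9 (others 84.6 to 86.0%) and 76.0% at 68659001 on chromosome 10 (others 74.5 to 74.7%). PML-RARa CD34+ replicate 13 had 72.6% at 25187001 on chromosome 7 (others 94.4 to 100%). PML-RARa CD34- replicate 12 had 29.0% at 74579001 on chromosome 5 (others 44.7 to 48.4%), and PML-RARa CD34- replicate 6 had 45.1% at 93715001 on chromosome 1 (others 63.1 to 69.5%).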

How the results depend on the processing

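The count of windows called between WT fractions, 124, was 46 with limma on logit levels and 47 of 4404 windows at a coverage minimum of 20. The coverage minimum left fewer windows to test, and the cause of the change under limma was not tested. It lay between 86 and 140 under the other alternatives, and between 58 and 144 with 1 library left out. The count in PML-RARa mice, 11, was 4 with limma on logit levels, 7 with limma and equal weight of cytosines, 2 at a coverage minimum of 20, 0 with flowcell as a factor, 1 with only the groups compared in the fit, 4 without the 5 libraries of high scatter, 4 without moderation and 25 with windows shifted by 500 bp. It lay between 0 and 16 with 1 library left out. Both genotype comparisons and the interaction had 0 calls among the chosen windows under every alternative run, and 0 to 0 with 1 library left out. Mean differences with 1 library left out lay between -1.28 and -0.805 points (PML-RARa minus WT, CD34+), -0.436 and 0.0221 (CD34-), -2.21 and -1.75 (CD34- minus CD34+, WT), -1.40 and -0.909 (PML-RARa) and 0.548 and 1.10 (interaction, 0.808 with all libraries). The share of windows with unlike cytosines, 54.5%, was 65.0% for a range of at least 40 points and 45.4% for 60. Of the values of named windows under alternatives, 829 kept their side of the threshold, 71 lost it and 0 changed direction. The 829 include the named windows of the genotype and interaction comparisons, which were never called. Each named call of PML-RARa mice was lost under 6 to 18 alternatives. Of the named WT calls, only chr7:25187001 was lost under 2 of 31 and chr15:99473001 under 1 of 31. Counting C and T reads alone, and leaving out low or 54 to 58 bp cytosines, were chosen after seeing the data, and gave 125, 131 and 116 calls in WT and 11, 16 and 9 in PML-RARa mice. A block for the number after # in the titles, which several libraries of a group share, gave 10 calls in PML-RARa and 119 in WT mice. The labels name no shared animal, but consecutive title numbers (1 and 2, 3 and 4, and so on) join a CD34- and a CD34+ library of one genotype and one # number. These 10 pairs were examined after seeing the data. Their deviations from the group means correlated at -0.05 to 0.187, above 0.1 in 3 of 10 pairs. Of the CD34- libraries, 5 of 10 correlated best with their own partner. Each had 5 CD34+ libraries of its genotype to match. Of the best matches, pairs 8 and 7, 10 and 9, and 18 and 17 shared a flowcell, while pairs 2 and 1, and 20 and 19 did not. Pairs 4 and 3, and 12 and 11 shared a flowcell without being best matches. The matches were not tested, and a shared animal and a shared flowcell cannot be told apart where both may hold. The labels do not state a pairing. The main analysis does not use these pairs. With them as a replicate block, 11 windows were called in PML-RARa and 86 in WT mice, and 0 for the interaction. The calls at the windows starting at 99473001 on chromosome 15 in WT mice, and at 106277001 on chromosome 14 and 93715001 on chromosome 1 in PML-RARa mice, were lost. Within these pairs the mean level of CD34- minus CD34+ libraries was negative in 5 of 5 pairs of either genotype, at -2.17 to -0.7475 points in PML-RARa and -2.36 to -1.84 points in WT mice. The genotypes cannot be compared within pairs, since each pair is of one genotype.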
